A study of Mus musculus with 24 samples.

Results

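Splenic B cells that had been activated in vitro for 24 h were set against cells activated for 12 h, as 3 libraries against 3 of the 24 in the series, chosen by their titles. All cells are from spleens of BALB/c mice and were bead purified and sorted, per the labels. The 8 groups of 3 libraries are cells activated in vitro for 4 h, 12 h and 24 h, cells activated in vivo, germinal center (GC) cells at their early, peak and late stages, and naive cells. The labels give no stimulus, animal, culture, age, sex or mutation, so each p-value measures only the spread between libraries as deposited, which may be technical. The files hold log2 values that behave like log2 CPM (read counts scaled to library size) and are not per gene length, so levels are compared between libraries and never between genes. A gene was tested where it had a log2 value of 0 or more in at least 3 of the 24 libraries, which held for 11885 of 23420 genes. "Called" means a Benjamini-Hochberg adjusted p under 0.05 over those genes in limma, a linear model with moderated variances. Each fold change is a log2 difference of 24 h minus 12 h with its standard error, unless another pair is named. In bulk RNA a change in the share of cells that express a gene and a change in RNA per cell cannot be told apart.

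A resting B cell that is activated first grows and then enters S phase. D-type cyclins with CDK4 or CDK6, and then E-type cyclins with CDK2, phosphorylate the retinoblastoma proteins, which frees E2F factors to transcribe genes for DNA replication. Genes for mitosis follow later, when the DREAM repressor complex has given way to B-MYB and FOXM1 on their promoters. Replication genes often carry E2F sites near their start, and mitotic genes often carry a cell cycle genes homology region (CHR) together with CCAAT boxes that bind NF-Y. Of 10 B-cell markers, 2 were higher at 24 h, 6 lower and 2 not called (median -0.35). Over all genes tested, 22.5% were higher and 34.8% lower. One of the 10, Cd79a, encodes a chain of the B-cell receptor complex. It had log2 values of 9.16, 9.22 and 9.23 in the 24 h libraries, and 9.56, 9.53 and 9.50 in the 12 h libraries (-0.33).

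5 promoters are printed because their genes are among those whose values are described below, and because they show the motifs searched in different numbers and places. They were picked for holding a motif, so they are examples and not a sample. Each is the RefSeq window of 300 bases, 250 before and 50 after the annotated start, 5′ to 3′ on the gene's strand, from build GRCm38.p6. Capitals mark matches, on either strand, to an E2F site (TTTCCCGC, TTTGGCGC, TTTCGCGC or TTTGCCGC), to a CHR (TTTGAA or TTCGAA) or to an NF-Y box (CCAAT). The windows lie at chr1:128359656-128359955 (minus strand) for Mcm6, chr10:69352863-69353162 (minus) for Cdk1, chr9:70421505-70421804 (minus) for Ccnb2, chr7:122159185-122159484 (plus) for Plk1 and chr4:118437294-118437593 (minus) for Cdc20.
Mcm6: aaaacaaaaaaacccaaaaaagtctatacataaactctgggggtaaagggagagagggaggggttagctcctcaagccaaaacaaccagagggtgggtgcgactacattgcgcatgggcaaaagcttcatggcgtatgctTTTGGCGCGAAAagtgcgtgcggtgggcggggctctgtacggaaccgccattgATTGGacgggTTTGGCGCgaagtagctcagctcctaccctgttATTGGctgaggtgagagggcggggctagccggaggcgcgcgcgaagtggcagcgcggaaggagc
Cdk1: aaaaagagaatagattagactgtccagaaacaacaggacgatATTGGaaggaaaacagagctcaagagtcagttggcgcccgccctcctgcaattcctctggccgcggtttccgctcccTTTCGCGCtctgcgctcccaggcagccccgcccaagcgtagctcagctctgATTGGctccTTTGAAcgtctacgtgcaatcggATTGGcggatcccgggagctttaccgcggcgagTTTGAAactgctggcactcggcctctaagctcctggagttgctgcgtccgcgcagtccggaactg
Ccnb2: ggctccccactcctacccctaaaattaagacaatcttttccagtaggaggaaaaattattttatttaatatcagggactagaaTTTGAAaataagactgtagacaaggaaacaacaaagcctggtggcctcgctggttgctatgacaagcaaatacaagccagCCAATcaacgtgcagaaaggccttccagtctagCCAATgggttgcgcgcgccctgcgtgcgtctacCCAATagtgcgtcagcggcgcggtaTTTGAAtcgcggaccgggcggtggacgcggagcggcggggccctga
Plk1: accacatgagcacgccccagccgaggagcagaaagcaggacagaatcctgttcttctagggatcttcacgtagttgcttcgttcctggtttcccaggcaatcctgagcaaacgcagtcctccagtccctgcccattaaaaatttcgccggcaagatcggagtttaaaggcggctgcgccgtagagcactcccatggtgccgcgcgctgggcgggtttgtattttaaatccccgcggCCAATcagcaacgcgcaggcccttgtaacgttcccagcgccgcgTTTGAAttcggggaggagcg
Cdc20: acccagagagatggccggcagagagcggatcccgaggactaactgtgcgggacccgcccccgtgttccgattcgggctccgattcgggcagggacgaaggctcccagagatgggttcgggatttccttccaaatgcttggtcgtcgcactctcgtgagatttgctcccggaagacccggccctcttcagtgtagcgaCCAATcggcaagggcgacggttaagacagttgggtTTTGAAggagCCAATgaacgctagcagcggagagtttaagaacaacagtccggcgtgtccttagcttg
The Mcm6 window, of a subunit of the replicative helicase, held 3 E2F matches that begin 110, 106 and 47 bases before the start, of which the pair at 110 and 106 overlaps. In Ccnb2, the gene of cyclin B2, CCAAT stood 87, 54 and 21 bases before the start, with CHR matches 167 bases before it and at base 5 after it. Cdc20, an activator of the anaphase-promoting complex, had a CHR match that began 18 bases before the start, between CCAAT at 53 and 8. Cdk1, the mitotic kinase, held all 3 kinds: 1 E2F match, 2 CHR and 3 NF-Y boxes.

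Over all 32851 RefSeq promoters of 27025 genes, 2.26% held an E2F match, 19.2% a CHR and 37.4% an NF-Y box. These genes include many that were not among the 11885 tested here, and shares over tested genes alone were not counted. Among 107 promoters of 92 replication genes the shares were 25.2% for E2F, 15.9% for CHR and 55.1% for NF-Y. Among 129 promoters of 117 mitosis genes they were 10.1%, 57.4% and 69% for the same motifs. Lists differed: origin licensing genes had the E2F match in 8 of 17 promoters (47.1%) and nucleotide supply genes in 1 of 21. The mitotic cyclins and their kinases had an NF-Y box in 12 of 13 promoters and a CHR in 8 of 13. NF-Y boxes were as common in some lists outside the cell cycle, with 17 of 19 promoters of the unfolded protein response list and 15 of 19 of the cholesterol synthesis list. Other such lists held fewer than all promoters did, among them the NF-kB list with 3 of 21 and the B-cell activation list with 4 of 19. Several promoters of one gene can overlap, so these shares are descriptions, and a match is only a run of letters. Some windows, such as those of Cdc6 and E2f1, belong to a start inside the annotated gene. The windows of Ccne1, Nusap1 and Birc5 held none of the 3 motifs, which says only that these letters are not in them.

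At 24 h, 2679 genes were higher and 4133 lower than at 12 h, 22.5% and 34.8% of the genes tested, and 57.3% were called in either direction. The median fold change of all genes was -0.10. Against that background, 266 of the 326 tested members of 17 cell-cycle lists were higher at 24 h, 28 were lower and 32 were not called, with a median of 1.75. Of those 266, 209 were higher by 2-fold or more, as were 832 of all 11885 genes tested. The DNA replication lists together had 104 of 114 members higher and 2 lower (median 1.76), and the mitosis lists together had 127 of 141 higher and 1 lower (median 2.67). A rise of at least 16-fold was measured for 34 of the 141 mitosis genes and 7 of the 114 replication genes, and was not counted over all genes. Ranked by size, 11 of the 12 largest rises among genes that averaged 10 CPM or more in the higher group were members of these lists: Ccna2, Mki67, Nusap1, Iqgap3, Rrm2, Birc5, Esco2, E2f8, Nuf2, Pbk and Kif11. For every gene given below by its 3 values at 24 h and 3 at 12 h, the libraries of the 2 times did not overlap, except Cdkn1b and Cd3e.

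**Figure D1:**
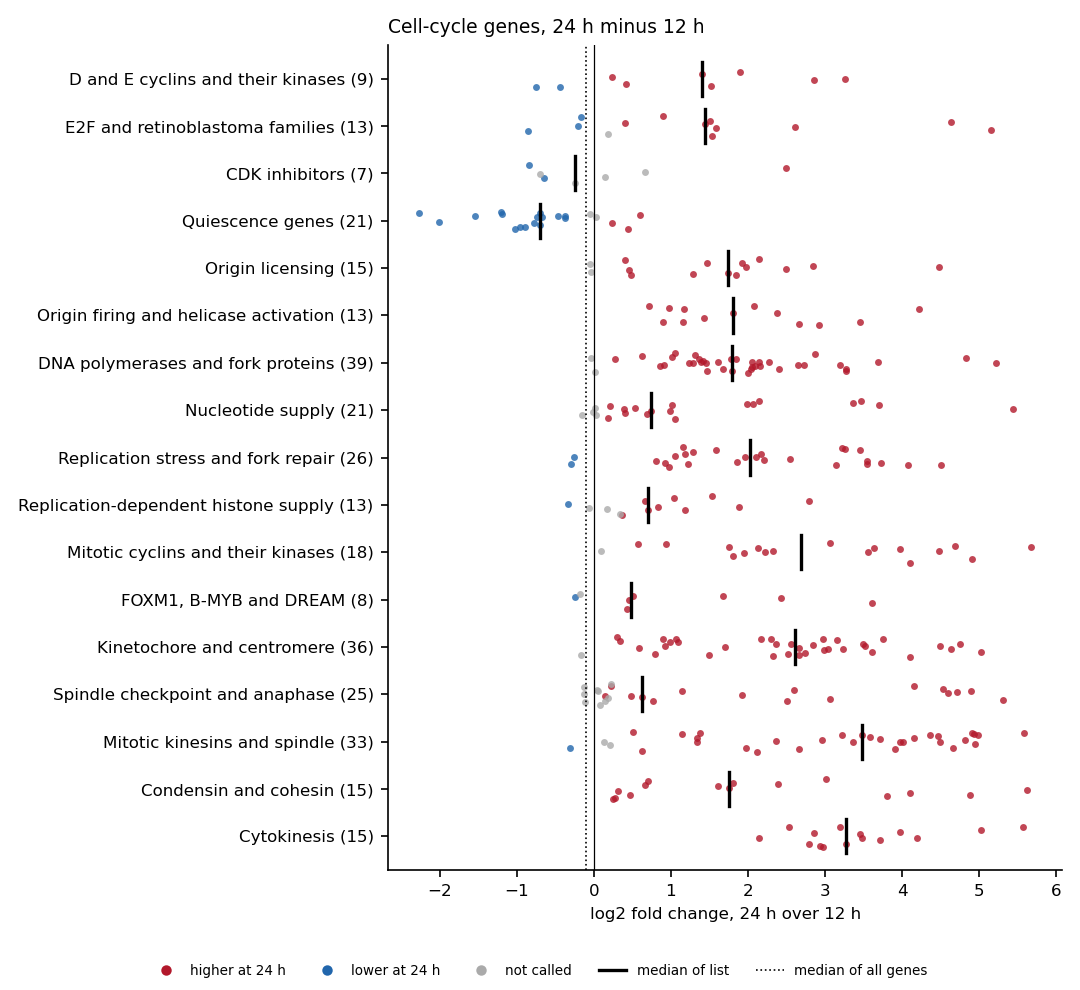
Each point is 1 gene of a cell-cycle list (tested members in brackets), placed by its log2 fold change of 24 h over 12 h and coloured by its call; the bar is the list's median and the dotted line the median of all genes. The medians of the kinesin (3.48) and cytokinesis (3.28) lists lie farthest right, and quiescence genes (-0.70) lie left of 0.

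The first step of entry, the D and E cyclins and their kinases, had 7 of 9 members higher and 2 lower at 24 h (median 1.41). Ccne1, the gene of cyclin E1 (chr7:38097984-38107490), had log2 values of 6.70, 6.75 and 6.88 at 24 h, and 3.88, 3.91 and 3.98 at 12 h. The groups did not overlap, and the fold change was 2.86 ± 0.11 (adjusted p = 3.37e-16). Ccne2, which encodes the second E cyclin, had 4.09, 3.71 and 3.68 at 24 h, and 0.76, 0.46 and 0.48 at 12 h (3.26 ± 0.22, adjusted p = 1.24e-11). Their kinase Cdk2 rose by 1.52 ± 0.05 and its activating phosphatase Cdc25a by 1.41 on the log2 scale. Among the D cyclins, Ccnd3 had 6.47, 6.59 and 6.60 at 24 h, against 4.62, 4.70 and 4.65 at 12 h (1.90 ± 0.07, adjusted p = 9.88e-17). Ccnd2 moved less, with 9.47, 9.48 and 9.29 at 24 h, and 8.96, 9.02 and 9.01 at 12 h (0.42 ± 0.15, adjusted p = 0.0212). Ccnd1 and Cdk6 were lower at 24 h, with changes of -0.75 ± 0.23 and -0.44 ± 0.13. Leaving out 1 library ended 3 of these calls: that of Ccnd2 without 24 h replicate 1 or 2 or 12 h replicate 1 (adjusted p up to 0.0656), of Ccnd1 without 24 h replicate 1 (0.0627) and of Cdk6 without 24 h replicate 3 (0.0562).

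The E2F and retinoblastoma families had 9 of 13 members higher and 3 lower. The 3 that fell were E2f4 (-0.16) and E2f5 (-0.85), which act mainly as repressors in resting cells, and the retinoblastoma relative Rbl2 (-0.21). Of the activators, E2f1 had 6.12, 6.22 and 6.24 at 24 h, against 3.62, 3.56 and 3.57 at 12 h (2.61 ± 0.08, adjusted p = 6.07e-18), E2f2 rose by 1.44 and E2f3 by 1.51. The atypical repressors E2f7 and E2f8, which are themselves E2F targets and limit E2F output in S phase, moved most. E2f8 (chr7:48866429-48882073) had 5.70, 5.84 and 5.67 at 24 h, and 0.43, 0.83 and 0.49 at 12 h (5.15 ± 0.10, 35.6-fold, adjusted p = 2.03e-21). E2f7 had 3.75, 3.81 and 3.69 at 24 h, against -0.78, -0.98 and -0.91 at 12 h (4.64 ± 0.14, adjusted p = 1.61e-18). Rb1 itself was not called (0.18 ± 0.09, adjusted p = 0.0719), while its relative Rbl1 (p107) rose by 1.58 ± 0.06. Without 24 h replicate 3 Rb1 was called higher (adjusted p = 0.0101). The small falls of E2f4 (without 24 h replicate 1 or 12 h replicate 2 or 3, adjusted p up to 0.122) and Rbl2 (without 24 h replicate 3 or 12 h replicate 1 or 3, up to 0.0798) were not called when 1 library was left out.

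Inhibitors of the cyclin-dependent kinases did not move together: of 7 members, 1 was higher, 2 lower and 4 not called. The INK4 inhibitor Cdkn2c (p18) had 2.69, 2.61 and 2.87 at 24 h, and 0.04, 0.46 and 0.20 at 12 h (2.49 ± 0.15, adjusted p = 1.88e-12). Cdkn1b (p27) had 5.54, 5.49 and 5.38 at 24 h, against 5.41, 5.30 and 5.24 at 12 h, and was not called (0.15 ± 0.20, adjusted p = 0.525). In a limma fit to the 6 libraries alone it was called higher (0.15 ± 0.06, adjusted p = 0.0455). Cdkn1a (p21), a p53 target, had -0.20, -0.45 and -0.28 at 24 h, and -0.04, 0.55 and 0.48 at 12 h (-0.64 ± 0.26, adjusted p = 0.0382). Cdkn1c (p57) was lower too (-0.84 ± 0.28, adjusted p = 0.0133), and both are near the filter. Without 12 h replicate 2 neither fall was called (adjusted p = 0.132 for Cdkn1a and 0.0586 for Cdkn1c), and that of Cdkn1a was lost without any other library but 12 h replicate 1, and with the replicate number as a block (0.0529). Quiescence genes had 16 of 21 tested members lower, 3 higher and 2 not called, and 1 further member was under the filter. Klf2, a factor that holds lymphocytes at rest, had 5.22, 5.42 and 5.58 at 24 h, and 7.14, 6.84 and 6.86 at 12 h (-1.54 ± 0.21, adjusted p = 5.63e-06). Foxo1 fell by 0.89 ± 0.05, Tsc22d3 (a glucocorticoid-induced gene) by 2.01 ± 0.13 and the histone demethylase Kdm5b by 2.27 ± 0.12 on the log2 scale. The 3 that rose were Klf4 (0.44), Slfn2 (0.60) and Zfp36l2 (0.24), and each call was lost without some libraries: Klf4 without 24 h replicate 3 or 12 h replicate 1 (adjusted p up to 0.111), Slfn2 without 24 h replicate 2 or 12 h replicate 3 (up to 0.0518), and Zfp36l2 without 24 h replicate 1 or 2 or 12 h replicate 2 or 3 (up to 0.157) and with the replicate block (0.0556).

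Origin licensing, the loading of the MCM helicase in G1, had 13 of 15 members higher, and Orc3 and Orc4 were not called. Mcm6, whose promoter is printed above, had 10.07, 10.09 and 10.04 at 24 h, and 8.06, 8.09 and 8.13 at 12 h (1.98 ± 0.05, adjusted p = 3.52e-20). The other 5 helicase subunits, Mcm2 to Mcm5 and Mcm7, rose by 1.29 to 2.14. The loader Cdc6 (chr11:98907709-98923942) changed most in this list, averaging 6.53 ± 0.07 at 24 h and 2.05 ± 0.21 at 12 h with no overlap (SD, n = 3 each; 4.48 ± 0.16, 22.4-fold, adjusted p = 2.83e-16). Its partner Cdt1 moved little (0.46), while Gmnn (geminin), the inhibitor of Cdt1 in S and G2 phase, rose by 2.85. All 13 origin-firing genes were higher. Mcm10, which activates the loaded helicase, had 7.11, 7.14 and 7.13 at 24 h, and 2.96, 2.84 and 2.92 at 12 h (4.22 ± 0.08, adjusted p = 2.03e-21), and Cdc45, a part of the active helicase, rose by 3.45 ± 0.07.

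Of 39 polymerase and fork genes, 37 were higher, and the small polymerase subunits Pold4 and Pole4 were not called. Pcna, the sliding clamp, had 10.16, 10.16 and 10.17 at 24 h, against 8.77, 8.83 and 8.78 at 12 h (1.37 ± 0.06, adjusted p = 1.48e-14). Larger changes were those of Esco2, which acetylates cohesin at the fork (5.22 ± 0.12), Clspn, the fork checkpoint mediator claspin (4.83 ± 0.13), the nuclease Dna2 (3.69) and the ligase Lig1 (3.27). Nucleotide supply genes had 17 of 21 members higher. The deoxynucleotide genes Rrm2, Tyms, Tk1, Rrm1, Dut and Dck rose by 1.99 to 5.44, and the 4 that were not called were Cad, Impdh2, Gart and Shmt2 (-0.15 to 0.03), of pyrimidine, purine and one-carbon metabolism. Cad was called lower in a limma fit to the 6 libraries alone (-0.15 ± 0.05, adjusted p = 0.0126). Rrm2, the inducible subunit of ribonucleotide reductase (chr12:24708254-24714146), had 8.26, 8.21 and 8.33 at 24 h, and 2.82, 2.94 and 2.73 at 12 h (5.44 ± 0.08, 43.3-fold, adjusted p = 2.13e-23).

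Replication stress and fork repair genes had 24 of 26 members higher. The 2 that fell were Atr, the apical checkpoint kinase (-0.30 ± 0.11), and its partner Atrip (-0.26 ± 0.07), while the kinase below them, Chek1, had 6.46, 6.31 and 6.33 at 24 h, against 4.16, 4.11 and 4.21 at 12 h (2.21 ± 0.11, adjusted p = 1.76e-14). The fall of Atr was not called without 24 h replicate 2 or 3 or 12 h replicate 3 (adjusted p up to 0.0721). The helicase Brip1 (4.51 ± 0.15), the Fanconi gene Fancd2 (4.08 ± 0.12) and the homologous recombination genes Rad54l (3.73) and Brca1 (3.14) were among those that moved most. In the histone supply list, 9 of 13 members were higher and 1 lower. The chromatin remodeller Hells rose by 2.79 ± 0.14, the variant H2A gene H2afz by 1.88 and Slbp, which binds the stem-loop of histone mRNAs, by 1.53 ± 0.06. The libraries were made from poly(A) RNA per the labels' kit name, and replication-dependent histone mRNAs lack a poly(A) tail, so those histone genes were left out of the list.

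**Figure D2:**
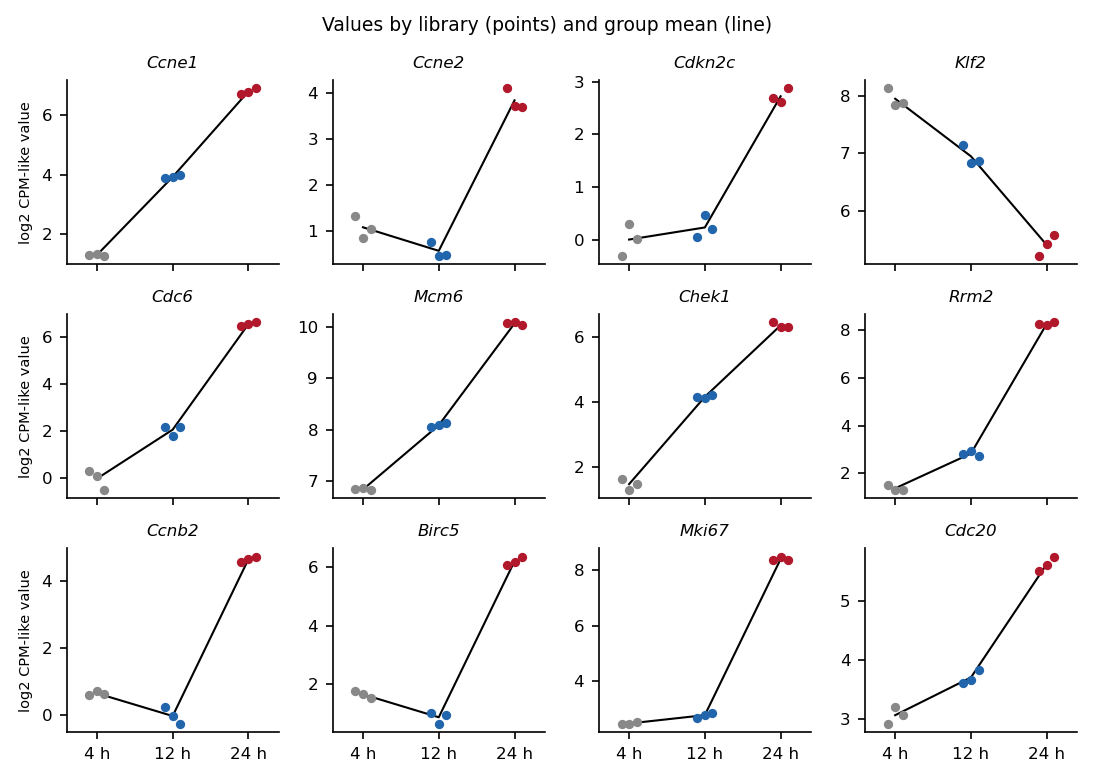
Deposited log2 values of 12 genes at 4 h, 12 h and 24 h; points are the 3 libraries of each time and the line joins the group means, with a separate vertical scale for each gene and the times evenly spaced. Ccne1, Mcm6 and Chek1 rose in both intervals, and Ccnb2 and Birc5 rose after 12 h and not before it.

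The mitotic cyclins and their kinases had 17 of 18 members higher, and the phosphatase gene Cdc25b was not called (0.10 ± 0.06, adjusted p = 0.184). Ccna2, the gene of cyclin A2 (chr3:36564865-36573038), had 7.63, 7.67 and 7.66 at 24 h, and 1.85, 2.01 and 2.07 at 12 h. Its fold change of 5.68 ± 0.10 (51.1-fold, adjusted p = 1.16e-22) led all 326 genes. Cdk1 had 6.98, 7.13 and 7.21 at 24 h, against 2.19, 2.17 and 2.23 at 12 h (4.91 ± 0.13, adjusted p = 7.88e-19). Ccnb2 had 4.56, 4.66 and 4.73 at 24 h, and 0.23, -0.05 and -0.28 at 12 h (4.69 ± 0.11, adjusted p = 1.24e-20). The Polo kinase Plk1 (4.10 ± 0.16) and Mastl (3.98), whose product restrains a phosphatase in mitosis, rose as well. Of the regulators of these genes, Mybl2 (B-MYB) had 6.63, 6.61 and 6.65 at 24 h, and 3.02, 3.06 and 2.97 at 12 h (3.61 ± 0.08, adjusted p = 1.24e-20). Foxm1 had 6.11, 6.20 and 6.05 at 24 h, against 3.67, 3.70 and 3.72 at 12 h (2.43 ± 0.08, adjusted p = 3.18e-17). The MuvB core genes of DREAM changed little: Lin9 and Lin54 rose by 0.51 and 0.46, Lin37 fell by 0.25, and Lin52 was not called. The call of Lin37 was lost without 24 h replicate 1 or 3 or 12 h replicate 1 or 2 (adjusted p up to 0.217) and with the replicate block (0.0651), and Lin52 was called lower without 12 h replicate 1 (0.0285).

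Genes of the mitotic apparatus rose almost as a whole: 35 of 36 kinetochore and centromere genes, 30 of 33 kinesin and spindle genes, 15 of 15 condensin and cohesin genes and 15 of 15 cytokinesis genes were higher. Nuf2, of the NDC80 complex that binds microtubules, rose by 5.02 ± 0.14, and Cenpf by 4.76. The motor Kif11 had 7.66, 7.62 and 7.60 at 24 h, and 2.59, 2.67 and 2.65 at 12 h (4.99 ± 0.13, adjusted p = 7.9e-19). Nusap1, a spindle protein, had 6.18, 6.27 and 6.41 at 24 h, against 0.94, 0.62 and 0.55 at 12 h (5.58 ± 0.14, adjusted p = 1.94e-19). Mki67, the proliferation marker that coats mitotic chromosomes, had 8.34, 8.48 and 8.36 at 24 h, and 2.66, 2.80 and 2.87 at 12 h (5.62 ± 0.11, 49-fold, adjusted p = 7.95e-21). Tubulin genes went their own ways, with Tubb5 up by 1.15, Tuba1c at -0.31 and Tubb4b not called. A limma fit to the 6 libraries alone called Tubb4b higher (0.13 ± 0.05, adjusted p = 0.0442). The call of Tuba1c was lost without 24 h replicate 1 or 12 h replicate 2 (adjusted p up to 0.0977), and that of Stag2 below without 24 h replicate 1 (0.1). Condensin members rose by 0.25 (Ncaph2) to 4.88 (Ncapg), and cohesin subunits Smc1a, Smc3, Rad21, Stag1 and Stag2 by 0.27 to 0.71. In cytokinesis, Iqgap3 (5.57 ± 0.24) and the mitotic kinase gene Pbk (5.02 ± 0.23) led.

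Within the spindle checkpoint and anaphase list, 16 of 25 members were higher and 9 were not called. The 9 were Bub3, the co-activator Fzr1 and 7 subunits of the anaphase-promoting complex (Anapc1, Anapc2, Anapc4, Cdc16, Cdc23, Cdc26 and Cdc27). Anapc2 was called lower without 24 h replicate 3 (adjusted p = 0.0302) and Anapc4 higher without 24 h replicate 2 (0.0494). In a limma fit to the 6 libraries alone, Bub3 (adjusted p = 0.0135), Anapc4 (0.0131) and Cdc27 (0.0102) were called higher and Anapc2 (0.0417) and Cdc16 (0.046) lower. Its E2 enzyme Ube2c had 5.23, 5.36 and 5.61 at 24 h, and 0.46, 0.77 and 0.29 at 12 h (4.89 ± 0.15, adjusted p = 2.21e-17). Cdc20 had 5.50, 5.61 and 5.75 at 24 h, against 3.61, 3.66 and 3.82 at 12 h (1.92 ± 0.10, adjusted p = 3.33e-13). Birc5 (survivin), of the chromosomal passenger complex, had 6.06, 6.18 and 6.35 at 24 h, and 1.03, 0.65 and 0.96 at 12 h (5.31 ± 0.11, 39.8-fold, adjusted p = 1.13e-20). Securin, encoded by Pttg1, rose by only 1.14 ± 0.11, whereas separase, encoded by Espl1, rose by 4.60 ± 0.12.

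The change from 12 h to 24 h was then set against that from 4 h to 12 h, intervals of 12 h and 8 h that share the 12 h libraries, so the 2 changes are not independent and are given side by side. From 4 h to 12 h, 34.6% of genes tested were higher and 27.2% lower. The replication lists had 90 of 114 members higher and 6 lower in the first interval (median 0.71), and the mitosis lists 97 of 141 higher and 10 lower (median 0.53). Licensing genes had medians of 1.18 in the first interval and 1.74 in the second, while cytokinesis genes had 0.55 and 3.28. Testing the second change minus the first in the same fit, 17.5% of all genes were called higher and 27.4% lower, with a median of -0.15. That difference was called higher for 86 of 114 replication genes (median 0.84) and 111 of 141 mitosis genes (median 1.88).

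Single genes show how the timing differed. Chek1 had means of 1.46 ± 0.18, 4.16 ± 0.05 and 6.37 ± 0.08 at 4 h, 12 h and 24 h (SD, n = 3), and it rose by more in the first interval than in the second (second minus first -0.49 ± 0.18, adjusted p = 0.0328). For Mcm5 and the fork protector gene Timeless the 2 changes were 1.57 and 1.47, and 1.64 and 1.61, and the difference was not called. Ccne1 likewise changed by 2.61 ± 0.11 and then 2.86 ± 0.11. Ccne2 went the other way, with a change of -0.51 ± 0.22 from 4 h to 12 h and 3.26 ± 0.22 from 12 h to 24 h (difference 3.77, adjusted p = 3.16e-08). Several genes of the later steps, and the nucleotide supply gene Tk1, also fell before they rose. Birc5 changed by -0.78 ± 0.11 and then 5.31 ± 0.11 (difference 6.09, adjusted p = 6.93e-16), and Ccnb2 by -0.67 ± 0.11 and then 4.69 ± 0.11. Foxm1 changed by -0.33 and then 2.43, and Tk1, a thymidine kinase, by -0.79 and then 3.36. For Mki67 the changes were 0.29 ± 0.11 and 5.62 ± 0.11. When libraries were scaled to the ribosomal protein genes, whose median had risen by 0.34 from 4 h to 12 h, the median of all genes in that interval moved to -0.27, against 0.05 as deposited, and 63 in place of 97 mitosis genes were called higher. The split of all calls in that interval moved to 23.9% higher, against 56% as deposited, and that of the difference to 74% higher, against 39%. The median difference of all genes moved from -0.15 to 0.17, and this scaling shifts every gene alike. The single-gene values above are as deposited. Small ones, such as the difference for Chek1 and the first change of Mki67, therefore depend on the scaling, and their calls were not tested again under it.

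**Figure D3:**
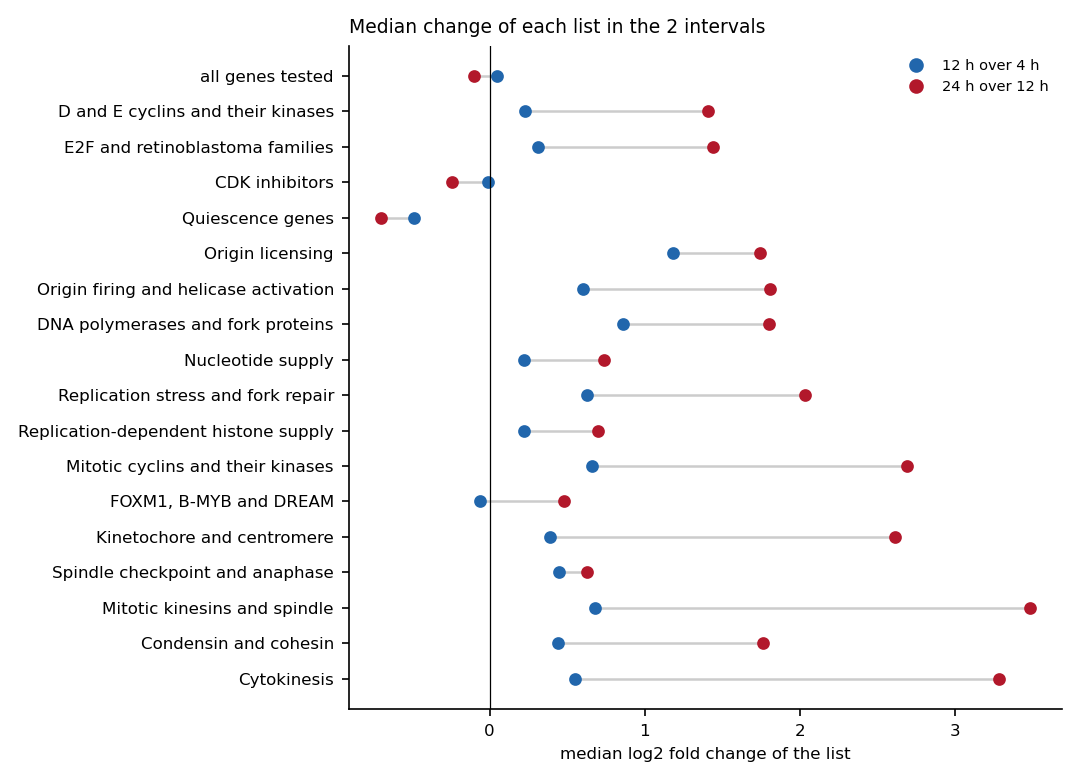
Median log2 fold change of each cell-cycle list, from 4 h to 12 h (blue) and from 12 h to 24 h (red), with all tested genes in the top row. The red points of the kinesin, cytokinesis, mitotic cyclin and kinetochore lists lie at 2.61 or more, and their blue points at 0.39 to 0.68.

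Levels at 24 h were also set beside those of in vivo activated B cells, without a test. Over all genes, the 3 libraries at 24 h lay above all 3 in vivo activated libraries for 39.6% of the genes tested and below all 3 for 36.2%. Among replication genes, 95 of 114 lay above, 7 below and 12 overlapped, with a median difference of 0.51 log2. Among mitosis genes, 26 of 141 lay above, 86 below and 29 overlapped, with a median difference of -0.39. All 15 licensing genes lay above the in vivo activated level, and 15 of 18 mitotic cyclin and kinase genes and 12 of 15 cytokinesis genes lay below it. Mcm6 averaged 10.07 ± 0.02 at 24 h and 9.12 ± 0.08 in in vivo activated cells (SD, n = 3 each). Chek1 averaged 6.37 ± 0.08 at 24 h and 5.42 ± 0.12 in in vivo activated cells.

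Of the replication and mitosis genes, Ccnb2, Pttg1, Prr11 and Ube2c lay farthest below. Ccnb2 averaged 4.65 ± 0.09 at 24 h, 7.37 ± 0.11 in in vivo activated cells and 7.69 ± 0.12 in peak GC cells. Pttg1 averaged 3.13 at 24 h and 5.65 ± 0.05 in in vivo activated cells. Ube2c averaged 5.40 ± 0.20 at 24 h and 7.53 ± 0.15 in in vivo activated cells, and Plk1 averaged 4.97 ± 0.17 at 24 h and 6.56 ± 0.09 in in vivo activated cells. A 2-fold or larger shortfall was measured for 28 mitosis genes and 1 replication gene. It was not counted over all genes, so neither count is read as particular to its genes. Others reached the same range: Cdk1 averaged 7.11 ± 0.12 at 24 h and 7.17 ± 0.02 in in vivo activated cells, and the 2 groups overlapped. Some of these genes had higher log2 values in naive libraries than in 12 h libraries, for example Mki67 with 5.08 ± 0.15 in naive cells and 2.78 at 12 h. The libraries differed in sex-linked genes as well: the Y-linked genes Ddx3y, Eif2s3y and Kdm5d had log2 values of 3.96 to 5.22 in the 24 h libraries and -6.21 to -6.13, the level of a gene with no reads, in the in vivo activated libraries. In the 12 h libraries the same 3 genes had 4.49 to 5.55, and each was lower in every 24 h library than in every 12 h library. Xist, expressed from the inactive X, had a median of 6.79 and a lowest value of 6.29 at 24 h, and 6.84 to 6.87 at 12 h. Its highest 24 h value lay above every 12 h value, so for Xist the libraries of the 2 times overlapped. In in vivo activated cells Xist had 8.01 to 8.24. The part of these differences in the levels above, and in the changes from 12 h to 24 h, was not tested.

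**Figure D4:**
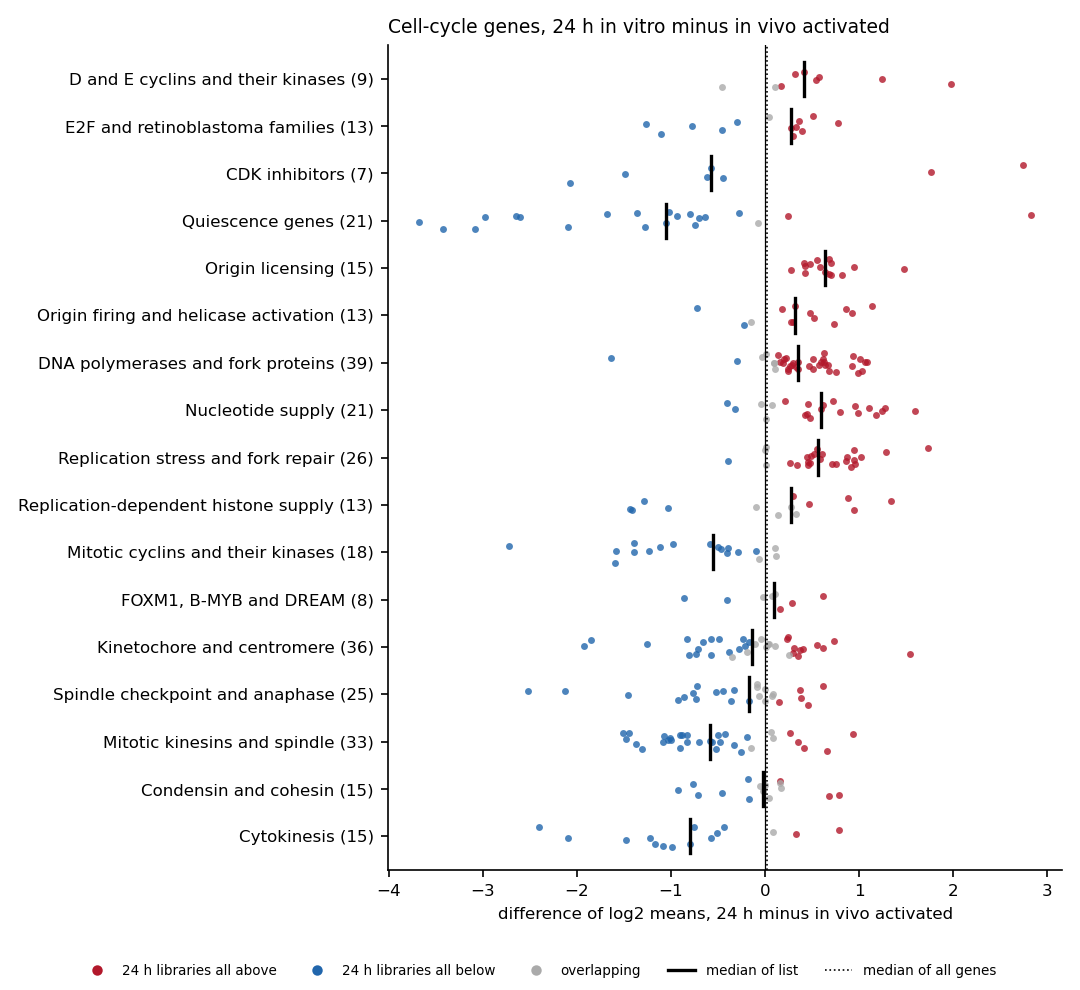
Each point is 1 cell-cycle gene placed by its mean log2 value at 24 h minus that in in vivo activated cells, coloured by whether all 3 libraries at 24 h lie above, below or among the 3 of the other group; bars are list medians. Licensing genes (median 0.64) lie right of 0 and cytokinesis genes (-0.80) lie left.

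The growth lists, of genes that activated cells switch on before S phase, moved in different ways. Ribosome biogenesis had 1 of 30 members higher and 19 lower (median -0.25), led by Pes1 (-0.49) and Rrp12 (-0.48). These are small changes: tested against a 1.2-fold change in limma, 2 of the 19 were called. Myc averaged 8.02 ± 0.06 at 24 h and 8.56 ± 0.07 at 12 h with no overlap (SD, n = 3 each; -0.54 ± 0.10, adjusted p = 5.62e-05). Mxd3, an antagonist in the MYC network that is active in S phase, rose by 2.07 ± 0.20. Respiratory chain genes had 8 of 43 higher and 13 lower (median -0.02), and ribosomal protein genes 6 of 35 higher and 7 lower (median -0.01), although all 43 and all 35 had been higher at 12 h than at 4 h. Over all genes tested 22.5% were higher at 24 h and 34.8% lower, so the 24 h counts are not read as particular to these lists. Against a 1.2-fold change 1 respiratory chain gene and 0 ribosomal protein genes were called lower; with no such limit, at an unadjusted p under 0.05, limma gave 13 and 9. Glycolysis genes had 11 of 17 higher and 2 lower (median 0.21), led by Tpi1 (0.60), and 2 of the 11 were called against a 1.2-fold change.

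Cholesterol synthesis was the growth list that rose throughout, with 22 of 22 members higher (median 1.08). Hmgcs1, of the first committed steps, had 8.03, 7.99 and 7.91 at 24 h, against 6.81, 6.81 and 6.85 at 12 h (1.16 ± 0.07, adjusted p = 5.37e-12). Acat2 (1.57 ± 0.08) and Sc5d (1.46 ± 0.11) led. In the interval from 4 h to 12 h, 19 of the 22 had been lower and 2 higher (median -1.11), with Hmgcs1 at 8.41, 8.34 and 8.25 at 4 h.

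**Figure D5:**
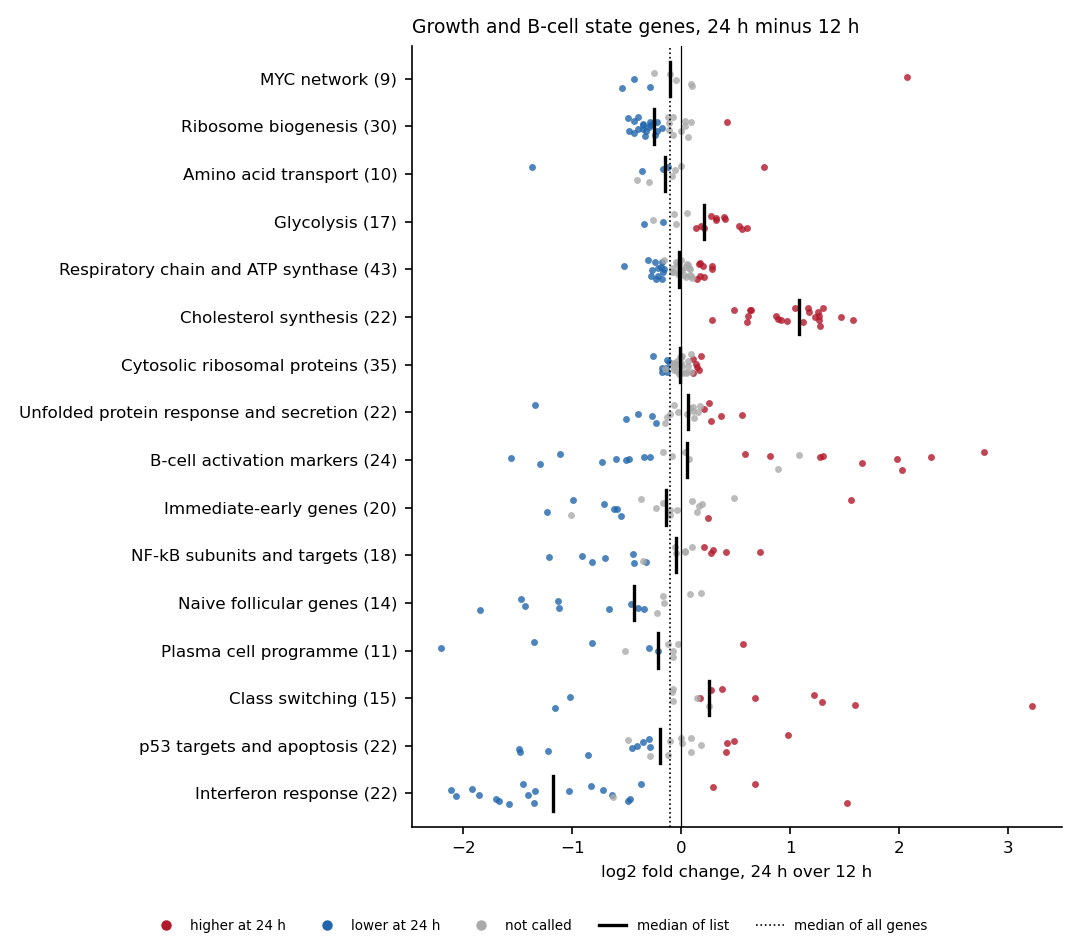
Each point is 1 gene of a growth or B-cell state list placed by its log2 fold change of 24 h over 12 h and coloured by its call; bars are list medians and the dotted line is the median of all genes. All cholesterol synthesis genes lie right of 0 (median 1.08), and most interferon response genes lie left (median -1.18).

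Among lists of B-cell state, interferon response genes had 18 of 22 members lower and 3 higher (median -1.18). Irf7, the factor that amplifies the response, had 1.23, 1.79 and 1.15 at 24 h, and 3.56, 3.53 and 3.40 at 12 h (-2.11 ± 0.14, adjusted p = 1.06e-11). Many members are low, and with a filter of 10 CPM in 3 libraries 6 were called lower. The RNA sensor gene Ifih1 (1.52 ± 0.18) and Ifit2 (0.68) were among the 3 that were higher. Genes of naive follicular cells had 9 of 14 tested members lower, among them the egress receptor S1pr1 (-1.85 ± 0.39), the homing receptor Ccr7 (-1.47 ± 0.25) and the repressor Bach2 (-1.12 ± 0.11). Class-switching genes had 8 of 15 higher and 2 lower. The 8 include the uracil glycosylase Ung (1.59 ± 0.08) and the repair genes Exo1 and Msh6, which also stand in the replication stress list.

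Plasma cell genes had 5 of 11 lower and 1 higher; Prdm1 (BLIMP1) had -0.86, -0.23 and -0.70 at 24 h, and 1.59, 1.71 and 1.52 at 12 h (-2.20 ± 0.19, adjusted p = 1.68e-09). Over all genes tested 22.5% were higher and 34.8% lower, and none of the counts that follow is read as particular to its list. The p53 target and apoptosis list had 9 of 22 lower (4 against a 1.2-fold change) and 4 higher, with Bbc3 (PUMA) at -1.48 ± 0.28, Gadd45g at -1.49 ± 0.19 and the survival gene Bcl2a1d at 0.98. B-cell activation markers split evenly, with 9 of 24 in each direction. The chemokine genes Ccl3 (2.78 ± 0.31) and Ccl22 (2.29 ± 0.48) and the inhibitory receptor Pdcd1 (2.02 ± 0.24) were higher, and Icosl (-1.56) and Cd69 (-1.11) were lower. Immediate-early genes had 6 of 20 lower and 2 higher, NF-kB genes 7 of 18 lower and 5 higher, amino acid transporters 4 of 10 lower and 1 higher, and the unfolded protein response list 5 of 22 in each direction. The 5 that were higher became 9 with only the 6 libraries, 8 when scaled to ribosomal protein genes and 1 against a 1.2-fold change. Without 24 h replicate 1, 3 immediate-early genes were called lower, and without 24 h replicate 2, 2 amino acid transporters.

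Ranked among genes called, whose libraries did not overlap and whose higher group averaged 10 CPM or more, the largest rise was that of Lpl, lipoprotein lipase (chr8:68880555-68906932), averaging 4.37 ± 0.24 at 24 h and -1.85 ± 0.32 at 12 h with no overlap (SD, n = 3 each; 6.22 ± 0.44, 74.7-fold, adjusted p = 4.58e-11). By the same limits the largest falls were those of Rgs16, a brake on G protein signalling, with 0.69, 0.61 and 0.38 at 24 h, against 3.66, 3.82 and 3.58 at 12 h (-3.13 ± 0.31), and of the chemokine receptor Cxcr4, with 3.99, 5.05 and 5.14 at 24 h, and 7.43, 7.83 and 7.98 at 12 h (-3.02 ± 0.33). After them came Fam160a1 (-2.51), Kdm5b (-2.27), Plk2 (-2.25), Itgb3 (-2.11), Irf7 (-2.11), Tsc22d3 (-2.01), Il9r (-1.94), Arrdc3 (-1.93), Il1r2 (-1.86) and Oasl1 (-1.86). Over the 8 group means, the genes whose pattern was most like that of Mki67 were Xkr5, Nek2, Nusap1, Kif23 and Vrk1, with Pearson correlations of 0.9977 to 0.9945, given as a description.

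Over the genes tested, Pearson correlations were 0.9921 to 0.9936 between the 3 libraries at 24 h and 0.9932 to 0.9939 between the 3 at 12 h. Levels differ widely between genes and the deposited values share nearly one distribution, so these correlations cannot show whether 1 library stood apart. The files give no counts, so sequencing depth is unknown. Of 10 T-cell markers, 7 were tested, 4 of which were higher at 24 h and 1 lower. Their summed level was 213 to 233 on the CPM-like scale at 24 h and 167 to 180 at 12 h, most of it from Lck, which had 7.49 to 7.65 log2 at 24 h and 7.36 to 7.46 at 12 h. Zap70 had 4.90, 4.99 and 4.78 at 24 h, and 1.26, 1.40 and 1.16 at 12 h (3.61 ± 0.44, adjusted p = 6.56e-07), while Cd3e had -2.93, -2.09 and -2.58 at 24 h, and -2.62, -4.15 and -3.50 at 12 h, and Cd4, which was under the filter, lay at -6.19 to -2.48 at 24 h and -6.21 to -6.13 at 12 h. The summed levels of the B-cell markers were 3.62e+03 to 3.7e+03 at 24 h and 3.97e+03 to 4.11e+03 at 12 h. Macrophage markers summed to 24 to 26 at 24 h and 19.9 to 21.8 at 12 h, neutrophil markers to 8.31 to 12.9 and 5.64 to 9.01, dendritic cell markers to 13.5 to 15.3 and 19.6 to 20.5, NK cell markers to 3.49 to 6.45 and 6.23 to 9.96, stromal markers to 30.1 to 35.3 and 52.2 to 56.1, and erythroid markers to 0.565 to 0.772 and 1.27 to 2.35. Leaving out 24 h replicate 2 or 3 or 12 h replicate 2 or 3 ended the call of Lck (adjusted p up to 0.177), as did the replicate block (0.0541), and leaving out 12 h replicate 1 gave one for Cd3e (0.04). The part of other cells in the results was not tested.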

How the data were processed

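RNA of 24 libraries was sequenced from a stranded mRNA kit, per the labels' protocols. The submitters' processing notes name mm10, limma, STAR 2.6.0c, cutadapt 1.8.3, FastQC 0.11.5 and, from Subread 1.6.2, featureCounts, with no role or order. The authors deposited 1 log2 value per gene and library. As deposited, 2 to the power of the values sums to 990678 to 1008194 per library, all libraries share nearly one distribution (the value at rank 1000 differs by at most 0.03), and for each gene the mean over each replicate number is equal (within 0.0009). The steps that did this are not given in the sources used here. They set the libraries to one scale, so a change in total RNA per cell is not measured, and they leave the residuals of a group not fully independent. The equal means take differences between replicate numbers out of the spread. The reported fit has no replicate block (16 residual degrees of freedom, against 14 with it), so its p-values may be too small.

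With limma 3.58.1 in R 4.3.3, 1 mean per group was fitted over all 24 libraries, with a variance trend and robust moderation, after keeping genes with a log2 value of 0 or more in 3 libraries. p-values were adjusted over all 11885 genes by Benjamini-Hochberg, with a threshold of 0.05. The code was tested on simulated data. Genes were named by rule: all members of the cell-cycle lists, of each other list up to 4 called in each direction by p and up to 2 not called, up to 12 of the largest changes each way (called, 2-fold or more, averaging 10 CPM or more in whichever group was higher, with libraries that did not overlap, and no unnamed gene model), and the 5 most like Mki67. S1pr1, Ccr7, Hmgcs1, Sc5d, Bbc3, Ccl3, Ccl22, Cd4 and Cd79a were named after their values were seen. Some list members are counted and are not reported here by name. The members and lists were chosen with earlier results of these data known, so no list is independent support for its direction. Promoters were searched in RefSeq windows of GRCm38.p6, and gene coordinates are of that build. Alternatives were other filters, an added pseudocount of 1, fewer libraries in the fit, a replicate block, other scalings, plain moderation, a test against a 1.2-fold change, and each library left out.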

Additional observations from a re-analysis of the deposited data

How the results depend on the processing

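From 12 h to 24 h, no named gene changed the sign of a called difference under any setting. Single genes were not checked in this way from 4 h to 12 h or in the difference between the intervals. In those 2 comparisons, scaling to ribosomal protein genes turned round the split of all calls. Tested against a 1.2-fold change, the genes called at 24 h over 12 h came to 1431 higher and 1657 lower, at 12 h over 4 h to 2194 and 1723, and in the difference of the intervals to 1315 and 1625. Scaling to ribosomal protein genes gave 1839 higher and 5856 lower at 12 h over 4 h, 63 mitosis genes higher there, and 3595 higher and 1264 lower in the difference; the scaled fit from 12 h to 24 h kept the split of calls (39.5% higher, against 39.3%). CDK inhibitors called lower were 1 (of 2) with no filter, with the 10 CPM filter, the pseudocount, the replicate block or plain moderation, and 0 against a 1.2-fold change. In the 150 bases before the start, all promoters held E2F, CHR and NF-Y matches in 1.24%, 9.7% and 24.5%, replication genes in 10.3%, 4.67% and 44.9%, and mitosis genes in 6.2%, 28.7% and 57.4%.

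With 1 library left out, genes called at 24 h over 12 h ranged from 2401 to 2469 higher and 3663 to 3820 lower, at 12 h over 4 h from 3790 to 3894 and 2924 to 3002, and in the difference from 1729 to 2044 and 2646 to 3202. Cell-cycle genes higher ranged from 260 to 264, replication genes from 102 to 104, mitosis genes from 124 to 128, and CDK inhibitors lower from 0 to 2. The leave-outs of the 12 h over 4 h change and of the difference were chosen after seeing the data. The fit to the 6 libraries at 24 h and 12 h holds no 4 h library, so it gave no value for those 2. Of 156 named genes, 32 gained or lost a call from 12 h to 24 h under some setting.

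The labels do not say that a replicate number marks a shared animal or day, and the values cannot show it: same-numbered 24 h and 12 h libraries had deviations correlated at -0.102, -0.148 and -0.15, and over all 84 same-numbered pairs of groups the median was -0.127, about what equal means over each number impose on values with or without pairing. With the replicate block, 2517 genes were higher at 24 h, and the calls of Cdkn1a, Lck, Lin37 and Zfp36l2 were lost. No depth is given, so low genes such as Cdkn1a cannot be given a counting error.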
